A study of Mus musculus with 10 samples.

Results

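Small leucine-rich proteoglycans are secreted matrix proteins with a curved core of leucine-rich repeats. They bind to collagen fibrils, set fibril spacing and thickness, and hold growth factors such as TGF-β in the matrix. Many carry sugar chains of chondroitin, dermatan or keratan sulfate, and in the heart they are made mainly by fibroblasts, valve cells and other connective tissue cells. The 8 genes described here were taken by name: decorin (Dcn), biglycan (Bgn), asporin (Aspn), lumican (Lum), fibromodulin (Fmod), prolargin (Prelp), osteomodulin (Omd) and osteoglycin (Ogn). All 8 were matched by Ensembl identifier among 56748 genes in the count tables, and all 8 were among the 15454 genes abundant enough to be tested.

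RNA was sequenced from whole hearts, atria and ventricles together, of wild-type C57BL/6 mice. The training group held 5 mice that ran on a treadmill for 8 weeks, 5 days per week and 120 min per day at 15 m/min, and the sedentary group held 5 mice of the same age. The mice were bought at 8 weeks of age, and the labels name no transgene or drug in either group. Each heart gave 1 library of poly-A RNA, with 29461697 to 35945417 counts on genes in the training hearts and 35196993 to 39431030 in the sedentary hearts. Levels are given as CPM, reads of a gene scaled to a common library size, and a gene was called higher or lower at a false discovery rate (FDR) below 0.1 over all genes tested by edgeR. A whole heart mixes cell types, so fewer cells of a type and less RNA per cell cannot be told apart.

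Fibromodulin and lumican were higher in the training hearts, no member was lower, and fibromodulin was the member whose groups did not overlap. So 2 of 8 members were called higher, while 2.75% of all tested genes were called higher and 4.26% lower (425 and 659 genes). Scaled by library totals alone in place of TMM factors, the same 2 members were called, but the balance of all genes turned to 1029 higher and 339 lower. The count of members moved when single hearts were left out: it was 1 in 7 of the 10 such fits. In those 7 fits 3.29% to 4.88% of all tested genes were called, against 7.01% with all 10 hearts. With an atrial or fibroblast marker score in the fit the count was 0, and 0.608% and 1.4% of all tested genes were called. For 1 of 8 members every training heart lay above every sedentary heart, and for 0 of 8 below, while the groups of 5.06% of all tested genes did not overlap, 2.12% higher and 2.94% lower. DESeq2 called the same 2 members and 0 lower, against 9.53% of all tested genes, 3.99% higher and 5.54% lower. The log2 fold change was above 0 for 7 members and below 0 for Aspn, against 50.1% of all tested genes above 0. The median log2 fold change was 0.15 over the 8 members and 0.00026 over all tested genes. The unadjusted p of edgeR was below 0.05 for Fmod, Lum, Omd and Prelp, all higher in training hearts, against 20% of all tested genes in either direction and 9.4% higher.

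**Figure D1:**
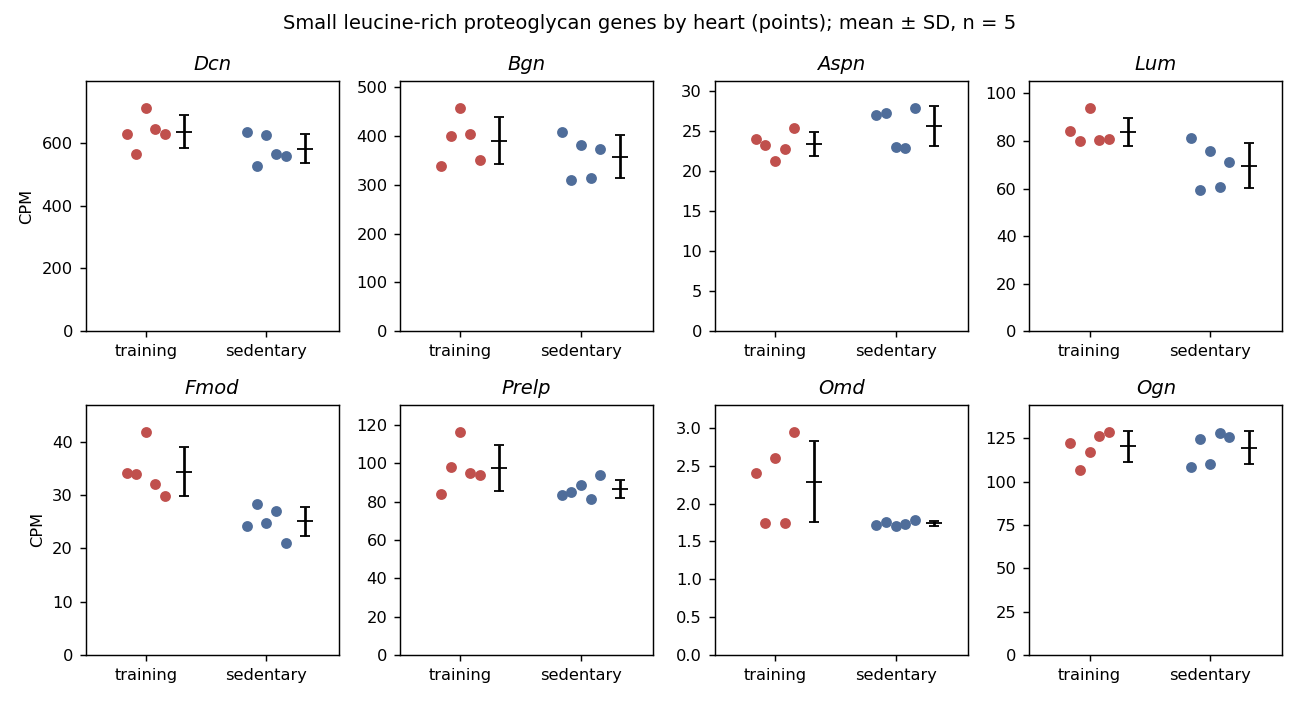
CPM of each gene (vertical axes, from 0, with a scale of their own) in each training heart and sedentary heart (points), with the mean ± SD of 5 hearts beside them. Fmod is the panel in which the groups do not overlap; in the Omd panel 3 training hearts lie well above a tight sedentary group and 2 lie within it.

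Levels between genes were compared per length, as the TPM values that the authors deposited, averaged over the 10 hearts. Decorin led with 376 TPM and made up 52.9% of the summed TPM of the 8 genes, followed by biglycan with 201 TPM. Osteoglycin stood at 49.7, lumican at 34.2 and prolargin at 27.4 TPM. Asporin had 11.1 TPM, fibromodulin 10.3 TPM and osteomodulin 1.27 TPM. Ranges over the hearts overlapped between lumican and prolargin and between asporin and fibromodulin, and between no other neighbours in this order. Asporin and fibromodulin changed places between hearts, whereas lumican exceeded prolargin in each of the 10. Reverse-strand counts per kilobase gave the same order. The 8 genes thus differ in depth: Dcn had 17971 to 26564 counts per heart and Omd 56 to 97.

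Decorin and biglycan belong to the class that carries chondroitin or dermatan sulfate, and asporin is their close relative with an aspartate-rich start and, usually, no such chain. Decorin (ENSMUSG00000019929, chromosome 10 of GRCm39, 97315275 to 97358155, plus strand) binds collagen fibrils and TGF-β. It was at 627, 565, 711, 643 and 627 CPM in training hearts 1 to 5 and at 635, 525, 626, 563 and 559 CPM in sedentary hearts 1 to 5. The groups overlapped, with training heart 3 highest and sedentary heart 2 lowest. The means were 634.7 ± 52.0 and 581.5 ± 47.3 CPM (SD, n = 5 each), and the log2 fold change was 0.13 (95% interval -0.015 to 0.27, adjusted p = 0.306 in edgeR's quasi-likelihood test).

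Biglycan (ENSMUSG00000031375, chromosome X, 72527208 to 72539541, plus strand) is the closest relative of decorin and also acts as a signal to immune cells when it is released from the matrix. It was at 338, 400, 458, 405 and 351 CPM in training hearts 1 to 5, and at 409, 309, 382, 313 and 374 CPM in sedentary hearts 1 to 5. The groups were interleaved: 1 training heart lay above all sedentary hearts. The log2 fold change was 0.13 (95% interval -0.068 to 0.32, adjusted p = 0.473 in edgeR's test). Decorin and biglycan were compared within each heart as well. The log2 ratio of their counts was 0.71 ± 0.16 in training and 0.71 ± 0.10 in sedentary hearts (SD, n = 5 each), a difference of -0.0025 (exact two-sided permutation test, p = 0.944).

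Asporin (ENSMUSG00000021388, chromosome 13, 49697609 to 49721057, plus strand) binds collagen and TGF-β and was the one member with a negative fold change. It was at 24.0, 23.3, 21.3, 22.8 and 25.4 CPM in training hearts and at 27.1, 27.3, 23.1, 22.9 and 27.9 CPM in sedentary hearts. None of the 5 training hearts reached the sedentary mean of 25.7 CPM, yet the groups overlapped through sedentary hearts 3 and 4. At -0.14 (95% interval -0.28 to 0.0098), the log2 fold change did not pass the test (adjusted p = 0.284, edgeR).

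Lumican, fibromodulin, prolargin and osteomodulin form the class whose members can carry keratan sulfate. Fibromodulin (ENSMUSG00000041559, chromosome 1, 133964992 to 133976015, plus strand) binds collagen I fibrils at the same site as lumican and guides cross-linking of the collagen. It was at 34.1, 34.0, 41.9, 32.1 and 29.8 CPM in training hearts 1 to 5 and at 24.2, 28.3, 24.7, 27.0 and 21.1 CPM in sedentary hearts 1 to 5. The lowest training heart thus stood above the highest sedentary heart, by a narrow gap. The means were 34.4 ± 4.57 and 25.0 ± 2.79 CPM (SD, n = 5 each), a 1.37-fold difference. The log2 fold change was 0.46 (standard error 0.092, 95% interval 0.26 to 0.66, edgeR's Benjamini-Hochberg adjusted p = 0.0217). DESeq2 gave an adjusted p of 0.000286. Fibromodulin was called higher in each of the 10 edgeR fits that left out 1 heart, with a log2 fold change between 0.38 and 0.51 and an adjusted p between 0.0252 and 0.0586. The call was lost with a fibroblast marker score in the fit (0.38, adjusted p = 0.186, edgeR) and with an atrial one (0.40, adjusted p = 0.228, edgeR).

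Lumican (ENSMUSG00000036446, chromosome 10, 97400990 to 97408577, plus strand) regulates fibril assembly and is best known from the cornea. The training hearts were at 84.2, 80.0, 93.9, 80.3 and 81.0 CPM and the sedentary hearts at 81.2, 59.3, 75.6, 60.6 and 71.3 CPM. The training hearts lay close together apart from heart 3, and the sedentary hearts spread downwards, with hearts 2 and 4 lowest and heart 1 within the training range. Its log2 fold change had a 95% interval of 0.094 to 0.44 and an adjusted p of 0.0887 in edgeR's test, just under the threshold. In DESeq2 the adjusted p was 0.0297. The call was lost with a fibroblast marker score in the fit (0.089, adjusted p = 0.629, edgeR) or an atrial one (0.13, adjusted p = 0.643, edgeR). Of the 10 edgeR fits without 1 heart, those without training heart 2 and without sedentary heart 1 kept the call (adjusted p = 0.0935 and 0.0276), and in the other 8 the adjusted p lay between 0.105 and 0.197. Lumican and fibromodulin were not told apart in their change: the log2 ratio of lumican to fibromodulin counts changed by -0.18 from sedentary to training hearts (p = 0.262, exact permutation test).

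Prolargin (ENSMUSG00000041577, chromosome 1, 133837335 to 133857971, minus strand) has a start rich in proline and arginine that binds heparan sulfate, and it links basement membranes to the collagen around them. It was at 83.8, 98.3, 116.6, 95.1 and 94.0 CPM in training hearts 1 to 5 and at 83.7, 85.0, 88.5, 81.6 and 93.7 CPM in sedentary hearts 1 to 5. All training hearts but the first stood above every sedentary heart. Its log2 fold change of 0.17 had a 95% interval of 0.019 to 0.33, and the adjusted p was 0.198 in edgeR's test. Without training heart 1 the adjusted p fell to 0.0839, and in the other 9 such fits it was not below 0.1.

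Osteomodulin (ENSMUSG00000048368, chromosome 13, 49735938 to 49746298, plus strand) is an acidic member found mostly in bone and tooth. It was at 2.41, 1.75, 2.60, 1.74 and 2.95 CPM in training hearts 1 to 5 and at 1.71, 1.75, 1.70, 1.74 and 1.78 CPM in sedentary hearts 1 to 5. Training hearts 1, 3 and 5 stood above all sedentary hearts, and training hearts 2 and 4 were level with them. Its log2 fold change was 0.40 (95% interval 0.071 to 0.72, adjusted p = 0.165, edgeR). The counts were few, 85, 61, 97, 56 and 89 in the training and 69, 60, 64, 61 and 65 in the sedentary hearts. The sedentary hearts varied by 1.77% (SD as a share of the mean), which is less than the 12.5% that counting error alone gives at this depth, and the training hearts varied by 23.3%. Without training heart 2 the adjusted p was 0.0888, and it was not below 0.1 in the other 9 fits without 1 heart.

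Osteoglycin (ENSMUSG00000021390, chromosome 13, 49761349 to 49780412, plus strand), also called mimecan, belongs to another class with fewer repeats. It was at 122.5, 106.6, 117.1, 126.6 and 129.0 CPM in training hearts and at 108.4, 125.0, 110.0, 128.4 and 126.1 CPM in sedentary hearts. The groups covered the same range. The log2 fold change was 0.0094, and its 95% interval of -0.12 to 0.14 ended well below the value of fibromodulin (adjusted p = 0.952, edgeR).

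**Figure D2:**
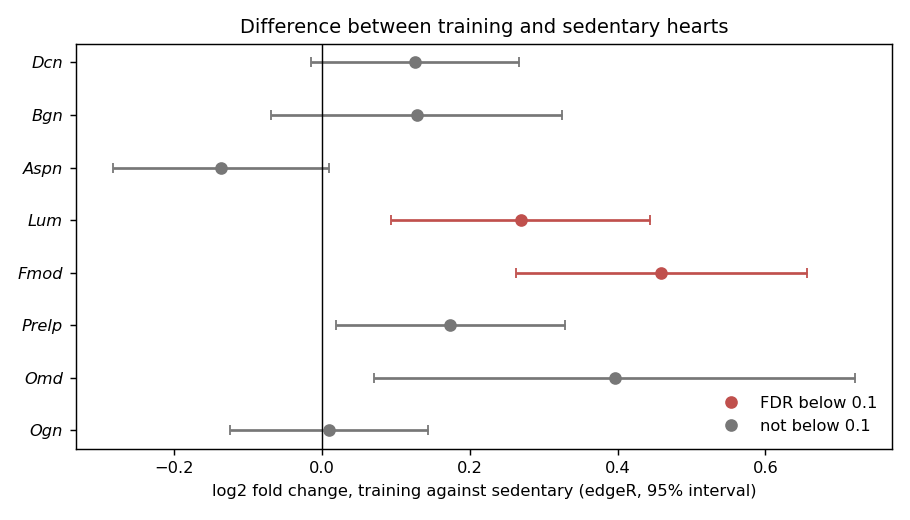
Log2 fold change from sedentary to training hearts (horizontal axis) of each gene, from edgeR, with 95% intervals as bars and genes at an FDR below 0.1 in red. Fmod at 0.46 and Lum at 0.27 are called; the intervals of Prelp and Omd also lie above 0 without passing the FDR, and that of Aspn reaches from -0.28 to 0.0098.

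The 8 genes lie at 4 places in the genome. Decorin and lumican are neighbours on chromosome 10 with 42834 bases between them, and prolargin and fibromodulin on chromosome 1 with 107020 bases between them. Asporin, osteomodulin and osteoglycin follow each other on chromosome 13, 14880 and 15050 bases apart, and biglycan is alone on the X chromosome. The change in the ratio of 2 members was tested within hearts for 7 pairs, with an exact two-sided permutation test over 252 assignments of hearts, whose smallest possible p is 0.00794, and Benjamini-Hochberg adjustment over the pairs. Fibromodulin gained on prolargin, with a log2 ratio higher by 0.29 in training hearts (permutation p = 0.0397, adjusted 0.0833). Osteomodulin gained on asporin by 0.50 (permutation p = 0.0159, adjusted 0.0833).

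Ratios in 2 further pairs of neighbours passed at the same adjusted value. The ratio of decorin to lumican fell by 0.15 (exact permutation p = 0.0317, adjusted 0.0833). That of osteoglycin to osteomodulin fell by 0.35 (exact permutation p = 0.0476, adjusted 0.0833). With the expected counts that the authors deposited, osteoglycin to osteomodulin did not pass (exact permutation, adjusted p = 0.153). Osteoglycin against asporin, at 0.14, did not pass (exact permutation p = 0.175, adjusted 0.244). In all 7 pairs the ranges of the groups overlapped. With 1 heart left out, 4 hearts stand against 5 and few of these calls were kept: 3 of 10 for osteomodulin against asporin, 2 of 10 for decorin against lumican, and 1 of 10 for each of the other 2.

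Of 89 genes that start within 0.2 Mb of a member or overlap one, 18 were tested, and 1 was higher and 0 were lower in edgeR at an FDR below 0.1, against 7.01% of all tested genes called in either direction. The 1 called gene was Zfp275, a zinc finger gene near Bgn, with a log2 fold change of 0.29 (adjusted p = 0.0629, edgeR). Asporin, osteomodulin and osteoglycin lie inside the span of Cenpp, a centromere protein gene on the opposite strand, which was at 1.26 and 1.57 CPM in the training and sedentary groups (adjusted p = 0.34, edgeR). No gene on the same strand overlaps a member. The strand of the reads was used, which matters for Prelp and Aspn: counts without strand held 86.2% and 92.9% of their reverse-strand counts, and between 100.1% and 101.7% for the other 6 members. The log2 fold changes and calls of the 8 members kept their direction and side of the threshold with counts of both strands.

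The sequences before the RefSeq start are shown for 2 of the pairs of neighbours whose ratio passed the test, Fmod with Prelp and Omd with Aspn. Because 142 of its 250 bases lie in an annotated exon, that of Ogn is not shown, although its ratio to Omd also passed. The Prelp window has 13 such bases. The sequences shown are the 250 bases before the RefSeq start (table of build GRCm38.p6), each with 1 exact match on its chromosome in GRCm39. They are written 5′ to 3′ on the gene's strand. Of the 8 members 6 had an entry in that table, and Dcn and Lum had none. Capitals mark CAGAC or its reverse complement GTCTG, the core bound by SMAD proteins that carry TGF-β signals. They also mark TATAAA or its reverse complement TTTATA, the letters of a TATA box, wherever in the window they stand. Whether any of these letters act in the heart was not tested.
Fmod, chr1:133964742-133964991, plus strand: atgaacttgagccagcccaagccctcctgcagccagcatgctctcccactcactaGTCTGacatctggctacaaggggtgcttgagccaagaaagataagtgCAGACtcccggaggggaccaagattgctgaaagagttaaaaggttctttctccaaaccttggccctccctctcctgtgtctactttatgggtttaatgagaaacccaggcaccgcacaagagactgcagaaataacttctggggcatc
Prelp, chr1:133849140-133849389, minus strand: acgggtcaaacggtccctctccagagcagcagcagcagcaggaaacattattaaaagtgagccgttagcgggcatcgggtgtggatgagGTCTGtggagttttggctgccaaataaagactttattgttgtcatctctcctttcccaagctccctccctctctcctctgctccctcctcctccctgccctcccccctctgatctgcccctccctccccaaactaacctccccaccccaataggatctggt
Omd, chr13:49735688-49735937, plus strand: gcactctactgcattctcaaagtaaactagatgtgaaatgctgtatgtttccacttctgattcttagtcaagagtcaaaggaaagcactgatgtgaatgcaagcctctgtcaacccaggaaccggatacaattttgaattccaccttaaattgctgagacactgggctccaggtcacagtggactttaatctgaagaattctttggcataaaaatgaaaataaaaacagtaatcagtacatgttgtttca
Aspn, chr13:49697669-49697918, plus strand: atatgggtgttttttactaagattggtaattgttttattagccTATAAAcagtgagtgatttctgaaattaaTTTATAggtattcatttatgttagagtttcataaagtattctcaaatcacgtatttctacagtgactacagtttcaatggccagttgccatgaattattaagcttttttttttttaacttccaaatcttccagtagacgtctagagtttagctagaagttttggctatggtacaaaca

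Fmod holds CAGAC at 2 places, at positions -195 and -148 from the RefSeq start, Prelp at 1 place, at -161, and Omd and Aspn at 0. These letters, searched on both strands, stand in 42.2% of all 32851 windows of this length in the table, so their presence is common. TATAAA is in 12.4% of the windows and stands in Aspn at -207 and -178, and in Ogn but in none of the other 4 members with an entry. The E-box CANNTG (66.2% of windows) was in Bgn, Fmod, Ogn and Aspn. TGANTCA (6.75%), bound by AP-1, was in none of the 6, while GGAATG (12.6%), bound by TEAD factors, and TGTGGT (14%), bound by RUNX factors, were in Ogn. The windows differed widely in base composition, from 30% G and C in Aspn to 64.4% in Bgn, with 51.2% in Fmod, 55.6% in Prelp and 38.4% in Omd. The start used by RefSeq for Prelp lies 8832 bases inside the longer gene of the GENCODE annotation, that of Aspn lies 310 bases inside, and that of Fmod and Omd equals the GENCODE start. The Aspn and Prelp windows thus lie downstream of the GENCODE start.

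Hearts differed in how much proteoglycan RNA they held in all. The summed level of the 8 genes was 1317, 1310, 1562, 1407 and 1340 CPM in training hearts 1 to 5 and 1370, 1160, 1331, 1198 and 1275 CPM in sedentary hearts 1 to 5. Decorin and biglycan make up most of that sum. Training heart 3 was the highest heart for Dcn, Bgn, Lum, Fmod and Prelp and the lowest for Aspn. Sedentary hearts 2 and 4 were the lowest hearts for Lum, and sedentary heart 5 was the lowest for Fmod.

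**Figure D3:**
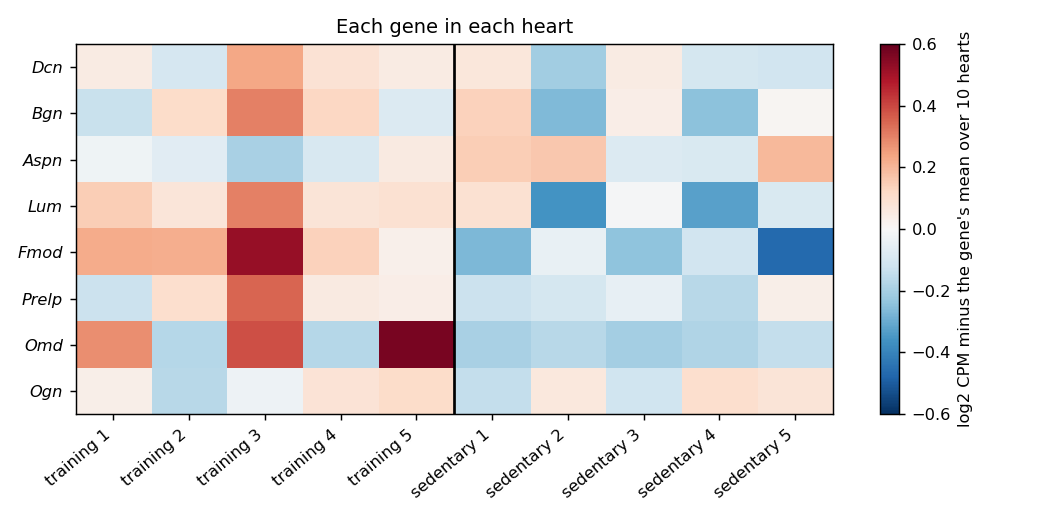
Log2 CPM of each gene (rows) in each heart (columns), less the gene's mean over the 10 hearts. Dcn, Bgn and Lum are all highest in training heart 3 and lowest in sedentary heart 2, and differ in other hearts, such as training heart 1, which is high for Lum and low for Bgn.

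After the group means were subtracted, decorin, lumican and biglycan varied together over the 10 hearts. Pearson's r was 0.82 for Dcn and Lum, 0.81 for Lum and Bgn, 0.70 for Bgn and Prelp and 0.66 for Dcn and Bgn. These values describe libraries that share their depth and tissue make-up, and 10 hearts estimate them loosely. Fibromodulin had r between -0.56 (Aspn) and 0.27 (Prelp) with the other 7 members, and osteomodulin between -0.21 (Bgn) and 0.36 (Ogn). Osteoglycin had r of -0.62 with Bgn and -0.58 with Lum. Pairs of members thus ranged from an r of -0.62 (Bgn and Ogn) to 0.82 (Dcn and Lum). A mean over the members is therefore not a profile that all of them share, and genes like that mean need not be like each member. The same residual levels were compared with those of 13118 other genes at a mean of at least 1 CPM. The genes most like the mean of the members were C1qtnf1 (r = 0.95), Gm57402 (0.93), Ftl1 (0.92), Pdgfra (0.91), Entpd2 (0.91), Tlcd2 (0.90), Coq8b (0.90), Zc3hav1 (0.90), Lrig2 (0.89) and Spon1 (0.89). Pdgfra is a growth factor receptor that marks fibroblasts, and it was the one of these 10 that was called higher (log2 fold change 0.24, adjusted p = 0.0627, edgeR).

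Each member had another closest gene by this measure over 10 hearts. Each r is the highest found in a search over 13118 genes, and those of the 10 genes above were picked in the same way. How high the best r would be among unrelated genes was not tested. Decorin was most like Ppp1r1b (r = 0.96), lumican like Ctsk, a matrix-cutting cathepsin (0.97), biglycan like Sfxn3 (0.97) and fibromodulin like Zxdb (0.89). Osteoglycin was most like Ccdc141 (0.97), prolargin like Nectin1 (0.96), osteomodulin like Zc3h11a (0.92) and asporin like Lncppara (0.95). None of these 8 genes was called higher or lower.

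Fibroblast markers moved with part of the family. The 10 fibroblast markers, all tested, had 1 gene higher (Pdgfra) and 0 lower, a median log2 fold change of 0.17, and Dpt, a matrix protein that binds decorin, as the most abundant. DESeq2 called 3 of them higher, Pdgfra, Tcf21 (adjusted p = 0.0475) and Cd248 (adjusted p = 0.0401). Their summed level was 430.7, 440.3, 493.6, 463.2 and 424.6 CPM in training hearts 1 to 5 and 460.4, 382.5, 447.4, 381.0 and 390.0 CPM in sedentary hearts 1 to 5. The residual level of this list had r of 0.89 with Bgn, 0.82 with Lum, 0.77 with Dcn, 0.27 with Fmod and -0.72 with Ogn over 10 hearts. Other lists also varied with some members. For atrial markers r was 0.78 with Dcn, and for macrophage markers it was 0.80 with Bgn and -0.86 with Ogn. Activated fibroblast markers had r of 0.88 with Prelp. For cardiomyocyte genes r was -0.64, -0.67 and -0.69 with Dcn, Lum and Bgn. With the fibroblast score added to the edgeR fit, chosen after seeing the data, Fmod had a log2 fold change of 0.38 (adjusted p = 0.186), Lum 0.089 (adjusted p = 0.629), Dcn -0.0041 and Bgn -0.11. In that fit 1.4% of all tested genes were called.

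Of 6 atrial myocyte markers 2 were called higher, Sln with a log2 fold change of 0.75 (adjusted p = 0.0316, edgeR) and Dkk3 with 0.73 (adjusted p = 0.0278, edgeR), and 0 lower. The median was 0.62, and Nppa, the atrial natriuretic peptide, was the most abundant gene. The summed level of the 6 genes was 6230, 5409, 7617, 6633 and 5053 CPM in training hearts 1 to 5 and 6837, 2789, 4619, 4836 and 2809 CPM in sedentary hearts 1 to 5, so sedentary hearts 2 and 5 were lowest and training heart 3 highest. With the atrial score in the fit, also chosen after seeing the data, Fmod had a log2 fold change of 0.40 (adjusted p = 0.228, edgeR) and Lum 0.13 (adjusted p = 0.643, edgeR), and 0.608% of all tested genes were called. Sedentary hearts 2 and 5 were also left out, after seeing that they were lowest in atrial markers. Without them Fmod was called (0.45, adjusted p = 0.0589, edgeR) and Lum was not (0.22, adjusted p = 0.262, edgeR). In that fit 1.79% of all tested genes were called.

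**Figure D4:**
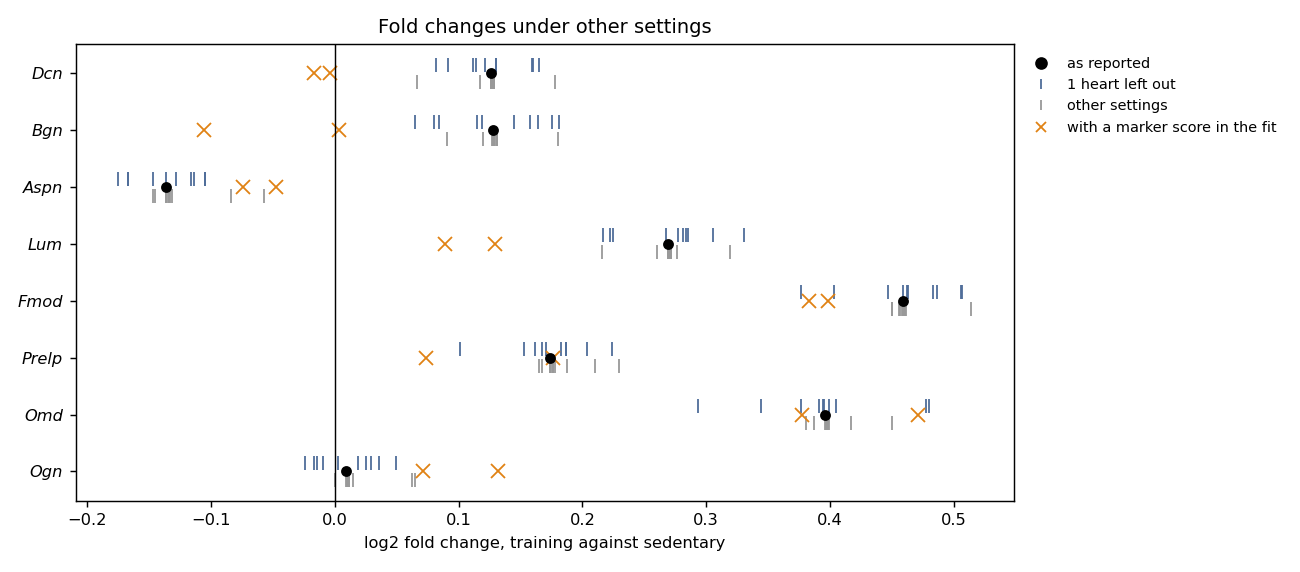
Log2 fold change of each gene (horizontal axis) as reported (black), with 1 heart left out (blue bars), under other settings (grey bars) and with a fibroblast or atrial marker score in the fit (crosses). With a marker score Fmod is at 0.38 and 0.40 and Lum at 0.089 and 0.13, neither called (Fmod adjusted p = 0.186 and 0.228, edgeR), and Dcn and Bgn lie between -0.11 and 0.0035.

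Markers of other connective tissue were looked at as well, since fibromodulin, lumican and osteomodulin are typical of tendon, valve, cartilage and bone. Of 10 valve and tendon-like markers 2 were called higher and 0 lower. The log2 fold change was above 0 for 8 and below 0 for 2, with a median of 0.29. Prg4, a joint lubricant, was the most abundant and lay below 0, at 35.9 against 38.4 CPM (log2 fold change -0.096, not called). The summed level of the list overlapped, at 98.3 to 147.7 CPM in training and 90.2 to 129.8 CPM in sedentary hearts. Comp, a cartilage and tendon matrix protein, was at 22.4, 24.4, 31.7, 26.3 and 24.2 CPM in training hearts and 20.3, 18.4, 18.0, 14.9 and 13.7 CPM in sedentary hearts, with no overlap (log2 fold change 0.60, adjusted p = 0.0161, edgeR). Wif1, a Wnt inhibitor, had a log2 fold change of 0.36 (adjusted p = 0.0376, edgeR). Of 8 cartilage markers 4 were tested, with a median of 0.30. Acan, the cartilage aggrecan, was higher but under 1 CPM (0.77 ± 0.19 against 0.43 ± 0.078 CPM, SD, n = 5 each, adjusted p = 0.0505, edgeR, with no adjusted p from DESeq2), and Sox9 was the most abundant. Col2a1, Col9a1, Matn1 and Matn3, the defining genes of cartilage, were near 0 and were not tested. After the group means were subtracted, Fmod had r of 0.25 with the valve and tendon-like list over 10 hearts, and 0.018 with the cartilage list. For Lum these values were 0.37 and 0.74, and for Omd -0.42 and 0.018. They rest on the 6 valve and tendon-like genes and 3 cartilage genes that reached 1 CPM, so Acan is not among them. The part of valve, tendon or cartilage cells in the fibromodulin result was not tested.

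Of 7 activated fibroblast markers 6 were tested and 0 called in either direction (median 0.21, Acta2 most abundant). Of the 7 epicardial markers 0 were called (median 0.12, Upk3b most abundant). Endothelial markers had 0 higher and 2 lower of 7, Esam at -0.23 (adjusted p = 0.0158, edgeR) and Tie1 at -0.16 (adjusted p = 0.0765, edgeR), with a median of -0.088 and Pecam1 as the most abundant. Mural cells had 1 higher, the smooth muscle gene Tagln at 0.54 (adjusted p = 0.0618, edgeR), and 1 lower, the pericyte gene Rgs5 at -0.18 (adjusted p = 0.0814, edgeR), of 7, with a median of 0.028. No macrophage marker of 7 (median -0.12, Csf1r most abundant), no adipocyte marker of 6 (median 0.74, Cfd most abundant) and no Schwann cell marker of 5 (median 0.12, Cdh19 most abundant) was called. Of 7 cardiomyocyte genes 1 was lower, Actc1 at -0.38 (adjusted p = 0.022, edgeR), with a median of -0.11 and Myh6 as the most abundant. All 7 were below 0 with TMM scaling, Pln at -0.00083, and DESeq2 called 3 of them lower, Actc1, Myh6 (adjusted p = 0.0549) and Ryr2 (adjusted p = 0.0785).

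The other leucine-rich proteoglycans had a positive median and no call. Of 9 genes 7 were tested, with a median of 0.17 and 6 above 0, and Kera and Podnl1 were too low. Podn, podocan, was the most abundant at 80.9 ± 10.6 against 74.3 ± 18.2 CPM (SD, n = 5 each). Among 22 other proteoglycans 17 were tested and 2 were higher, Acan and Gpc3, a glypican of the cell surface, which was at 19.8 ± 3.17 against 14.5 ± 2.24 CPM (log2 fold change 0.46, adjusted p = 0.0498, edgeR). DESeq2 called 3 higher, Gpc3, Col18a1 (adjusted p = 0.0656) and Sdc2 (adjusted p = 0.0954). Their median was 0.0067, and Hspg2, the basement membrane perlecan, was the most abundant.

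The enzymes that build the sugar chains had 1 call in all. For chondroitin and dermatan sulfate, 0 of 21 tested genes were called in edgeR at an FDR below 0.1, with 2 at an unadjusted p below 0.05 and 0 called by DESeq2. Their median was 0.023, and Fam20b, the xylose kinase of the linker, was the most abundant. For keratan sulfate, 1 of 7 tested genes was called: B4galt4, a galactosyltransferase of the chain, fell by 0.34 on the log2 scale (adjusted p = 0.032, edgeR). The median of this list was 0.051, and Papss2, which makes the sulfate donor, was the most abundant.

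Of 12 fibril collagens and their partners, which these proteins bind, 1 was higher, 1 was lower and the other 10 did not pass the test, with a median of 0.032. Col14a1, a collagen on the surface of fibrils, was at 34.6 ± 6.25 CPM in training and 25.9 ± 3.47 CPM in sedentary hearts (SD, n = 5 each), with overlap (log2 fold change 0.42, adjusted p = 0.0626, edgeR). Col5a3, a chain of the fibril-starting collagen V, was at 23.1, 20.8, 23.7, 22.9 and 21.8 CPM in training hearts and 29.5, 39.4, 28.7, 25.6 and 33.6 CPM in sedentary hearts, with no overlap. It fell by 0.48 on the log2 scale (adjusted p = 0.0206, edgeR). Col3a1, the most abundant, had a log2 fold change of -0.0031.

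Among 19 genes of collagen processing and cross-linking 2 were lower and 0 higher. P4ha2, a prolyl hydroxylase, fell by 0.20 (adjusted p = 0.0279, edgeR) and Plod1, a lysyl hydroxylase, by 0.18 on the log2 scale (adjusted p = 0.0572, edgeR). The list's median was -0.0083, and Serpinh1, the collagen chaperone, was the most abundant. Of 10 tested proteases reported to cut these proteoglycans, Adamts4, an aggrecanase, fell by 1.03 on the log2 scale (0.83 ± 0.36 against 1.69 ± 0.31 CPM, SD, n = 5 each, adjusted p = 0.0438, edgeR). The median of the list was -0.21, and Mmp2 was the most abundant.

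Of 12 receptors reported to bind the members 0 were called in edgeR, with 4 at an unadjusted p below 0.05 and 1, Erbb4, called by DESeq2 (adjusted p = 0.0482). Their median was 0.033, and Lrp1, the uptake receptor of decorin, was the most abundant. Of 12 TGF-β ligands, receptors and latent binders 1 was higher: Ltbp1, which anchors latent TGF-β in the matrix, had a log2 fold change of 0.23 and no overlap between the groups (adjusted p = 0.0629, edgeR). DESeq2 called 2, Ltbp1 and Tgfb2 (adjusted p = 0.066). The median was 0.13, and Ltbp4 was the most abundant.

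**Figure D5:**
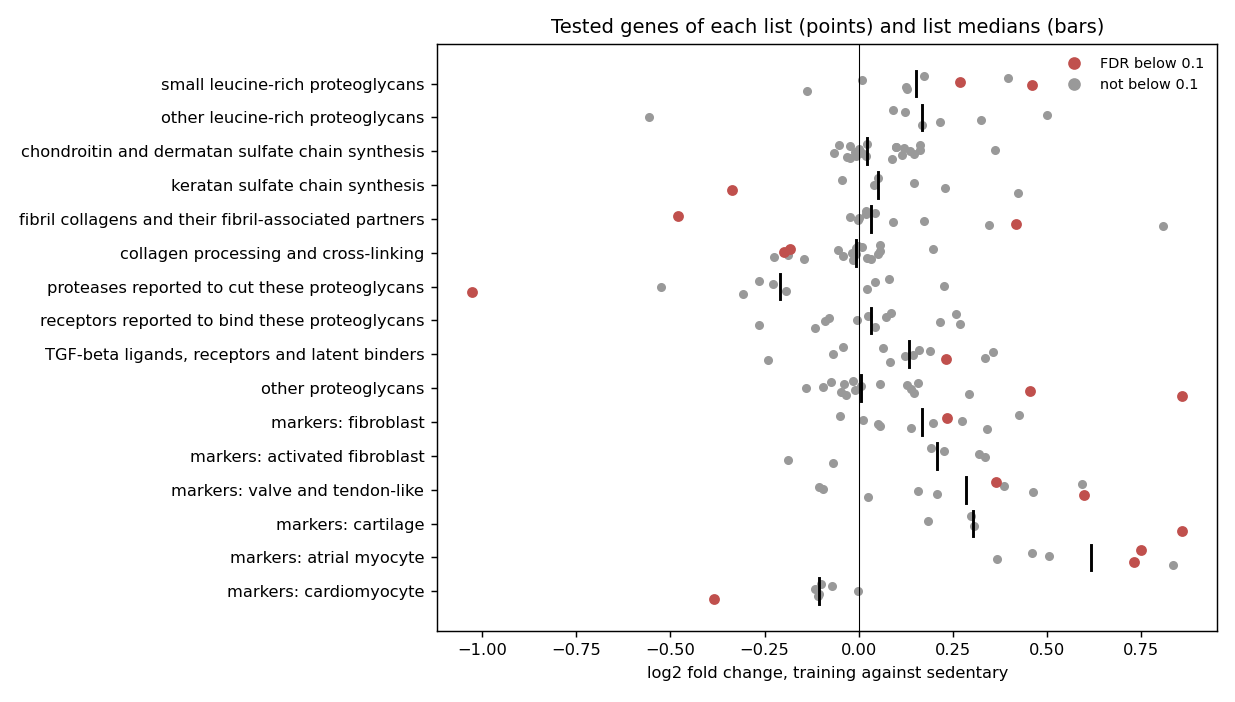
Log2 fold change of every tested gene (points, red at an FDR below 0.1) in the 8 members and in 15 related lists, with the median of each list as a bar. The median is 0.15 for the members, 0.032 for fibril collagens, 0.023 for chondroitin and dermatan sulfate synthesis, -0.21 for the proteases and 0.62 for atrial markers.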

How the data were processed

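The authors aligned single reads of 10 directional poly-A libraries, sequenced in 1 pool, to GRCm39 with STAR 2.7.10a and deposited raw counts per gene and strand. They also deposited RSEM 1.3.3 expected counts, TPM and gene lengths; the strand setting of RSEM is not given in the sources used here. Counts of the reverse strand, which the kit's chemistry gives, were used. Symbols came from GENCODE M39 by Ensembl identifier (56017 of 56748 matched). Training was tested against sedentary by the quasi-likelihood F test of edgeR 4.0.16 in R 4.3.3, after filterByExpr and TMM, with Benjamini-Hochberg adjustment over 15454 genes and an FDR below 0.1. CPM use TMM-corrected library sizes, with a prior count of 2 for logarithms. Ratios of 2 members used counts plus 0.5. Libraries of a group differed by more than counting noise (chi-square per degree of freedom 6.16 to 27.4), so errors are between hearts.

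The 8 members and the 21 lists were chosen with earlier results of these data known. From each list, the called genes and the most abundant gene were named. Marker scores are means of log2 CPM. Alternatives were DESeq2 1.42.0, other normalizations and filters, expected counts (rounded), counts of both strands, the mouse number as a block, an FDR below 0.05 and each heart left out. Data of 15291 genes were simulated, with known changes on the log2 scale. There edgeR called 40% of 100 genes changed by 0.3 and 63.6% of 99 genes changed by 0.5. Of its calls 14.2% were unchanged genes, against 26.8% for DESeq2. No other genes were changed there, whereas edgeR called 1084 genes in the data, so these shares need not carry over. Protein sequences were not analysed here.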

Additional observations from a re-analysis of the deposited data

How the results depend on the processing

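Under DESeq2, other size factors, a filter of at least 10 counts, counts of both strands and the mouse-number block in edgeR, the same 2 members, Fmod and Lum, were called higher and none lower. The pairing by mouse number was checked: residuals of hearts with the same number had correlations of -0.097, 0.16, 0.075, 0.024 and 0.16, and 3 of 10 hearts were most like their own number, so the number was not used as a pair. With the replicate block, Lum had an adjusted p of 0.0357 and Fmod of 0.0175 in edgeR (1137 calls in all), and an exact sign-flip test of the paired ratios gave an adjusted p of 0.109 for Dcn to Lum (-0.15), Fmod to Prelp (0.29), Ogn to Omd (-0.35) and Omd to Aspn (0.50), each at 0.0625 before adjustment, the lowest p that 5 pairs of hearts allow. Library totals alone moved the median of all genes by 0.053 and gave 1029 higher and 339 lower genes against 425 and 659. The number of members higher in edgeR was 1 with expected counts (Lum 0.27, adjusted p = 0.1005), where 6.21% of all tested genes were called. It was 1 at an FDR below 0.05 (Lum 0.27, adjusted p = 0.0887), where 3.27% of all tested genes were called. It was also 1 without sedentary hearts 2 and 5 (Lum 0.22), where the share was 1.79%. With either marker score it was 0, and the share was 0.608% (atrial) and 1.4% (fibroblast). With the atrial score the log2 fold changes were 0.40 for Fmod, 0.13 for Lum and -0.016 for Dcn, and with the fibroblast score 0.38 for Fmod, 0.089 for Lum, -0.0041 for Dcn and -0.11 for Bgn, all from edgeR with no call. Without a filter Ogn had -0.00012. With expected counts the ratio of Ogn to Omd (-0.35) did not pass (permutation, adjusted p = 0.153). The cause of these changes was not tested.

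With each heart left out in turn, 1 to 3 members were higher and 0 lower. There was 1 without training heart 3, 4 or 5 or sedentary heart 2, 3, 4 or 5, and there were 3 without training heart 2. Over all tested genes, 3.29% to 9.58% were called in these 10 fits, and 8.02% without training heart 2. The log2 fold changes ranged from 0.082 to 0.16 for Dcn, 0.22 to 0.33 for Lum, 0.065 to 0.18 for Bgn, 0.38 to 0.51 for Fmod, -0.024 to 0.0498 for Ogn, 0.10 to 0.22 for Prelp, 0.29 to 0.48 for Omd and -0.17 to -0.10 for Aspn, with a median over the members of 0.092 to 0.20. The log2 ratios ranged from -0.049 to 0.049 for Dcn to Bgn, -0.28 to -0.11 for Lum to Fmod, -0.18 to -0.11 for Dcn to Lum, 0.20 to 0.34 for Fmod to Prelp, -0.46 to -0.28 for Ogn to Omd, 0.087 to 0.21 for Ogn to Aspn and 0.41 to 0.59 for Omd to Aspn. Omd rests on 56 to 97 counts per heart.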
